A study of Mus musculus with 4 samples.

Results

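The presynaptic active zone scaffold is described here by 10 genes, Bsn, Pclo, Rims1, Rims2, Ppfia2, Ppfia3, Erc1, Erc2, Unc13a and Rimbp2. They were taken as a list of gene symbols, matched to their Ensembl gene IDs, and the rule that lists them uses no measured value, although the list was drawn up with earlier results of these data known. All 10 were found among the 26328 genes listed in at least 1 sample, and all 10 passed the filter on low values (at least 0.5 RPKM in at least 2 samples), which left 18436 genes for testing. RPKM counts the reads on a gene per kb of its exons, relative to the total mapped in that library.

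The active zone is the patch of presynaptic membrane where synaptic vesicles dock and release transmitter. Large scaffold proteins hold vesicles near it, tether calcium channels close to the release sites and bring in the proteins that prime vesicles for fusion. In the hippocampus these proteins serve both excitatory and inhibitory terminals, and genetic loss of several of them alters short-term plasticity.

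RNA was prepared from the hippocampus of male C57BL/6 mice, wild type (WT) or Lsd1 knock-in (KI), and poly(A) RNA was sequenced in 2 samples of each genotype. LSD1 is a histone demethylase encoded by Kdm1a. In KI mice a serine of LSD1 that protein kinase Cα phosphorylates is replaced by alanine, an exchange that the mouse carries in the whole animal and not in a chosen cell type. The comparison asks whether the genes of presynaptic function are expressed differently when this phosphorylation cannot occur. Male KI mice and WT littermates of 8 to 15 weeks were used for behaviour, and the age of the mice used for sequencing was not given separately. The labels name replicates 1 and 2 in each group but do not say that each is a separate mouse, so p-values measure only the spread between these samples.

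The whole-read steps of the RPKM values gave 8827967 mapped reads for WT replicate 2, the shallowest library, and 13414957 to 14949756 for the other 3. These totals assume that the GENCODE M21 exon length, which 15467 of the 26328 genes matched, is the length the authors used for those genes, whereas the relative depth does not. Kdm1a itself stood at 11.63 and 11.18 RPKM in WT and at 10.97 and 11.17 RPKM in KI. Since the mutation is an amino acid exchange, this level does not check the labels. Markers of neurons, astrocytes and oligodendrocytes were all present, as was the CA1 marker Fibcd1 at 33.5 to 34.9 RPKM. KI replicate 1 stood apart in the choroid plexus gene Ttr, with 51.3 RPKM against 8.13 to 13.8 RPKM in the other 3 samples. All results are from whole tissue, in which fewer cells of a type and less RNA per cell cannot be told apart.

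All 10 scaffold genes were expressed well above the filter, and their order was much the same in every sample. Means over the 4 samples ran from 49.5 RPKM for Unc13a to 7.2 RPKM for Erc1. Between them came Bsn at 41.5, Rimbp2 at 39.6, Erc2 at 35.4, Ppfia3 at 34.6, Rims1 at 30.4, Ppfia2 at 28.5, Pclo at 11.9 and Rims2 at 11.6 RPKM. The ranges of neighbours in this order overlapped for Bsn and Rimbp2, for Erc2 and Ppfia3, for Rims1 and Ppfia2, and for Pclo and Rims2. The other neighbours were apart in all 4 samples. Counting error was small for all members: from 511 reads (Rims2 in WT replicate 2) to 9436 reads (Unc13a in KI replicate 2) lay behind each value, so that the counting error was 4.4% to 1.0% of the value.

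**Figure D1:**
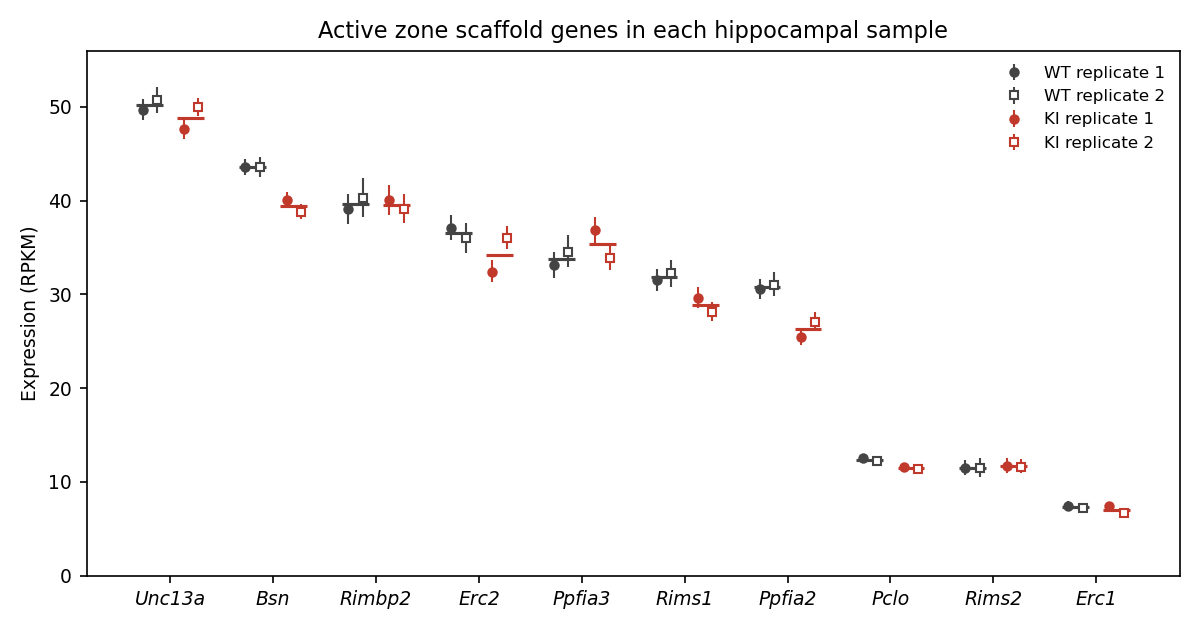
Expression of the 10 scaffold genes in RPKM (vertical axis, from 0) in each hippocampal sample, WT in grey and KI in red, with replicate 1 as filled circles and replicate 2 as open squares. Short horizontal lines are group means and vertical bars are exact Poisson 95% intervals for counting error only. Both KI samples lie below both WT samples for Bsn, Rims1, Ppfia2 and Pclo, and the groups overlap or nearly touch for the others.

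In the comparison of KI with WT, no scaffold gene passed the test. With limma on log2(RPKM + 1) and Benjamini-Hochberg adjustment over the 18436 genes, 0 of the 10 had an adjusted p under 0.1 with at least 1.2-fold change, as was the case for 0% of all tested genes, and the smallest adjusted p among the members was 0.414. Without adjustment 3 of the 10, namely Bsn, Rims1 and Ppfia2, were lower in KI at p under 0.05, against 3.33% of tested genes lower and 6.3% higher at that level. That number of members was 0 without WT replicate 2, 1 without WT replicate 1 and 1 without KI replicate 2, and it was 3 without KI replicate 1. Both KI values lay below both WT values for 4 of 10 members (Bsn, Pclo, Rims1 and Ppfia2), against 18.1% of all tested genes, and above them for 1 of 10 (Rims2), against 24% of all tested genes. With RPKM scaled by median ratios or quantiles, Erc2 and Unc13a joined the first group, which then held 6 members against 21% and 22.9% of all genes, and no member lay above. The median log2 difference, KI minus WT, was -0.07 over the members and 0.01 over all tested genes. The summed RPKM of the 10 genes was 296.2 and 299.3 in WT, against 282.9 and 282.7 in KI, a ratio of 0.95. With voom, limma's method for counts, applied to the whole reads recovered from the RPKM values, 1 member (Ppfia2) had an adjusted p under 0.1, against 0.645% of 15960 genes that were lower with such a p, but its change was under 1.2-fold. Under voom 0 members met both conditions, against 1.75% of genes in either direction.

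Liprins-α, encoded by the Ppfia genes, are adaptor proteins that recruit scaffold components to forming active zones. Ppfia2 (liprin-α2, chr10:106470339-106935952, GRCm38, plus strand) showed the largest difference among the members. Its values were 30.55 and 31.04 RPKM in WT and 25.48 and 27.1 RPKM in KI. The groups did not overlap, the gap exceeded the spread within either group, and the counting intervals of the groups were also apart. WT samples averaged 30.79 ± 0.349 RPKM and KI samples 26.29 ± 1.15 RPKM (SD, n = 2 in each group), a difference of -14.6%. The WT spread was below the counting error of the WT values (1.7% and 2.1%), so it understates how far such samples can differ. On the log2(RPKM + 1) scale the difference was -0.22 (SE 0.05, 95% interval -0.36 to -0.08), with an adjusted p of 0.414 by limma. By voom the adjusted p was 0.0567. Exons of Acss3 and C230021G24Rik, on the opposite strand, overlap 2670 of the 10903 exonic bases of Ppfia2 in GENCODE M21. Neither gene exceeded 1.36 RPKM, and the strand setting of the counting was not stated. The RPKM of Ppfia2 rests on 8021 exonic bases, so the overlapping bases may lie outside those counted.

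Ppfia3 (liprin-α3, chr7:45339122-45367019, minus strand), the other liprin-α among the members, had 33.11 and 34.54 RPKM in WT and 36.89 and 33.87 RPKM in KI. The groups overlapped. The log2 difference was 0.06 (95% interval -0.10 to 0.23), so that a change of more than 1.2-fold in either direction lay outside the interval on this scale.

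The study designed primers for a separate PCR measurement on Ppfia2, Bsn and Rims1. The stretches they bound are shown because they locate that readout within genes that are counted here over many more exonic bases. These were 8021 for Ppfia2, 15938 for Bsn and 6863 for Rims1. The amplicons were read from GENCODE M21 transcripts (GRCm38), with the primer sites in capitals, and no other gene held both sites. That of Ppfia2 lies within coding exon 28 of Ppfia2-201, at chr10:106913570-106913658 on the plus strand, and that of Bsn within coding exon 5, at chr9:108112405-108112477 on the minus strand. That of Rims1 joins coding parts of neighbouring exons between chr1:22346453-22373355 on the minus strand and is held by 6 transcripts.
Ppfia2: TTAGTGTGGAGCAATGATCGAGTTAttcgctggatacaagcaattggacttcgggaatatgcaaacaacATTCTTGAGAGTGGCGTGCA
Bsn: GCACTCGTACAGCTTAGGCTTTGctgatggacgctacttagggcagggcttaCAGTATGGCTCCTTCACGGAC
Rims1: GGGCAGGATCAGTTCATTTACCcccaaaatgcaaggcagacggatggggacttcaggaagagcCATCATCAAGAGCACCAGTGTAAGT

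Bassoon and piccolo, encoded by Bsn and Pclo, are giant related proteins that organise the cytomatrix around vesicles. Bsn (chr9:108096022-108190384, minus strand) had 43.6 and 43.57 RPKM in WT and 40.03 and 38.78 RPKM in KI. The WT samples were almost equal, the groups did not overlap, and their counting intervals were apart. WT samples averaged 43.59 ± 0.0177 RPKM and KI samples 39.41 ± 0.887 RPKM (SD, n = 2 in each group), a difference of -9.6%. The log2 difference was -0.14 (SE 0.05, 95% interval -0.26 to -0.02), with an adjusted p of 0.49 by limma and 0.151 by voom. Bsn therefore did not pass the test, although the difference was larger than the spread within the groups. The WT spread was below the counting error of the WT values (1.0% and 1.3%), so it understates how far such samples can differ.

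Pclo (chr5:14514918-14863459, plus strand) had 12.57 and 12.19 RPKM in WT and 11.6 and 11.35 RPKM in KI. Again the groups did not overlap, but their counting intervals did. The log2 difference was -0.10 (95% interval -0.25 to 0.05, limma adjusted p = 0.617). Exons of Gm26918 and Gm26954, on the opposite strand, overlap 925 of its 22457 exonic bases in GENCODE M21. These genes were listed at up to 16.0 RPKM, so their reads and those of Pclo may not be separable there. The RPKM of Pclo rests on 19182 exonic bases, which may leave out the overlapping ones.

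RIM proteins, encoded by Rims1 and Rims2, bind the vesicle protein Rab3, Munc13 and calcium channels and are needed for docking and priming. Rims1 (chr1:22286251-22805994, minus strand) had 31.54 and 32.25 RPKM in WT and 29.67 and 28.18 RPKM in KI. The groups did not overlap, but their counting intervals did. The difference was -9.3% in RPKM and -0.14 on the log2 scale (SE 0.05, 95% interval -0.27 to -0.00). Its adjusted p was 0.516 by limma and 0.287 by voom. Rims2 (chr15:39198261-39684372, plus strand) had 11.48 and 11.47 RPKM in WT and 11.71 and 11.63 RPKM in KI. Its KI values were higher in both samples, but by only 1.7% on average, which is below the counting error of its values. The log2 difference was 0.02 (95% interval -0.12 to 0.17, limma adjusted p = 0.93).

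Erc1 and Erc2 encode ELKS proteins, which bind RIM and liprin-α. Erc1 (chr6:119570796-119848167, minus strand) had 7.481 and 7.218 RPKM in WT and 7.422 and 6.679 RPKM in KI, and its log2 difference was -0.05 (95% interval -0.26 to 0.15). The groups overlapped, and the sign of the Erc1 difference depended on KI replicate 2, without which it was 0.01. Erc2 (chr14:27622428-28478537, plus strand), the brain-enriched form, had 37.11 and 35.98 RPKM in WT and 32.44 and 36.05 RPKM in KI. Only KI replicate 1 was low for Erc2. The log2 difference of -0.09 (95% interval -0.27 to 0.08, limma adjusted p = 0.698) was -0.02 without that sample.

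Unc13a encodes Munc13-1, the priming factor that makes docked vesicles ready for fusion, and Rimbp2 encodes a RIM-binding protein that links RIM to calcium channels. Unc13a (chr8:71624417-71671757, minus strand) had 49.71 and 50.73 RPKM in WT and 47.61 and 50.0 RPKM in KI, with a log2 difference of -0.04 (95% interval -0.17 to 0.09). It shares 495 exonic bases with Colgalt1, on the opposite strand, which was listed at up to 21.2 RPKM. Rimbp2 (chr5:128757791-128953486, minus strand) had 39.07 and 40.3 RPKM in WT and 40.08 and 39.11 RPKM in KI, with a log2 difference of -0.00 (95% interval -0.13 to 0.12). The groups overlapped for both genes, and the intervals lay within 1.2-fold in either direction.

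**Figure D2:**
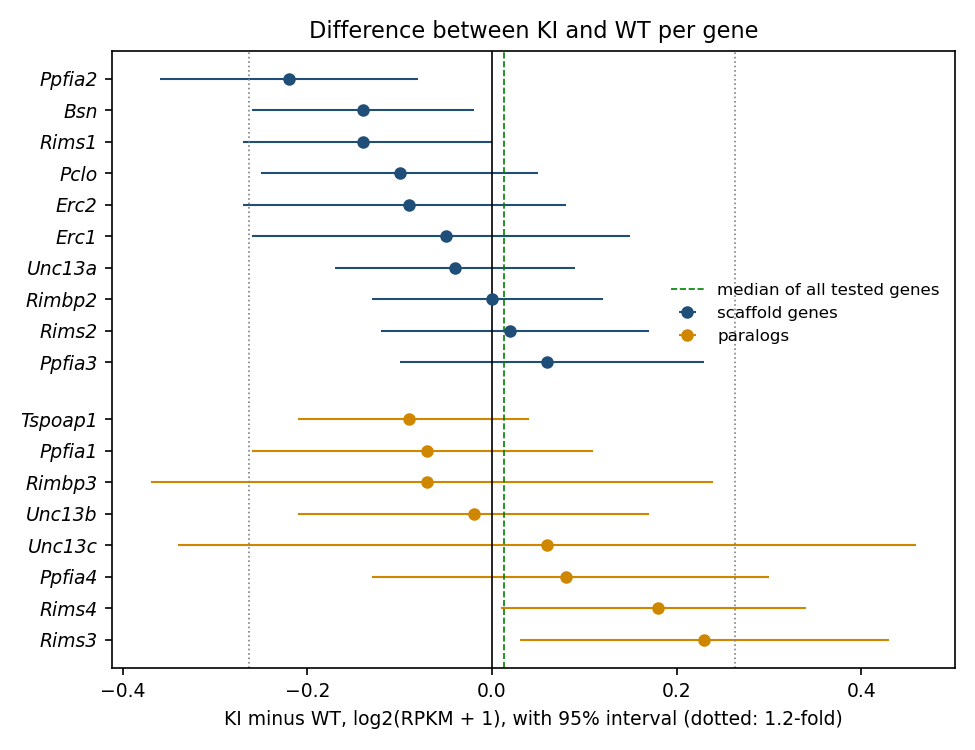
Difference between KI and WT on the log2(RPKM + 1) scale (horizontal axis) for the 10 scaffold genes (blue) and their 8 paralogs (orange), with the 95% interval of the limma fit. The dashed line is the median of all tested genes (0.01) and the dotted lines are 1.2-fold. Ppfia2 (-0.22), Bsn (-0.14) and Rims1 (-0.14) lie lowest, Rims3 (0.23) and Rims4 (0.18) highest, and no gene passed the adjusted test.

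Ratios of related genes within a sample do not depend on the scaling between samples. They do not remove a change with length, since the genes of a pair differ in it (8021 exonic bases for Ppfia2, 5293 for Ppfia3). The ratio of Ppfia2 to Ppfia3 was 0.923 and 0.899 in WT and 0.691 and 0.8 in KI, a log2 difference of -0.29. The ratio of Rims1 to Rims2 was 2.75 and 2.81 in WT and 2.53 and 2.42 in KI, a log2 difference of -0.17. The ratio of Bsn to Pclo was 3.47 and 3.58 in WT and 3.45 and 3.42 in KI, a log2 difference of -0.04. In these 3 of the 4 pairs the KI ratios lay below both WT ratios, by a small margin for Bsn to Pclo. Their first genes, Ppfia2, Rims1 and Bsn, are members already described as lower in KI, and no share over other pairs of genes was computed. The ratio of Erc1 to Erc2 overlapped between groups, with 0.202 and 0.201 in WT and 0.229 and 0.185 in KI. With 2 samples against 2, a two-sided exact permutation test cannot give a p under 0.333. That was the p of the Ppfia, Rims and Bsn to Pclo ratios, and it was 0.444 after adjustment over the 4 ratios. For the Erc ratio p was 1.0.

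**Figure D3:**
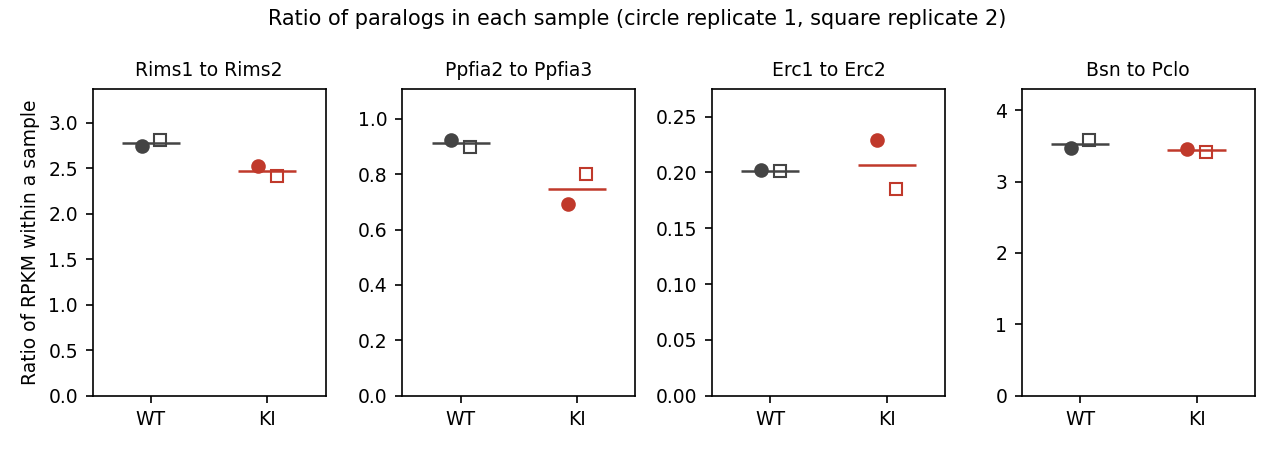
Ratio of the RPKM of related scaffold genes within each sample (vertical axes, each from 0), with group means as lines. The Ppfia2 to Ppfia3 ratio averages 0.911 in WT and 0.745 in KI and the Rims1 to Rims2 ratio 2.78 and 2.48, whereas the Erc1 to Erc2 ratios of the groups overlap; the smallest p possible with these samples is 0.333.

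Among the 8 paralogs of the members, 0 passed the limma test, and 2 were higher in KI at an unadjusted p under 0.05. These were Rims3 and Rims4, which encode short RIM proteins that lack most of the domains of RIM1. Rims3 had 7.237 and 8.028 RPKM in WT and 9.22 and 9.02 RPKM in KI, and its log2 difference was 0.23 (95% interval 0.03 to 0.43, limma adjusted p = 0.49). Rims4 had 10.19 and 10.62 RPKM in WT and 12.18 and 11.58 RPKM in KI, and its log2 difference was 0.18 (95% interval 0.01 to 0.34, limma adjusted p = 0.501). For both genes the KI values lay above both WT values, whereas those of Rims1 lay below. With voom on recovered reads Rims3 passed the test (adjusted p = 0.0886) and Rims4 did not (adjusted p = 0.264). Rims3 lies on chr4, 15.7 Mb from the targeted gene Kdm1a, and whether this position bears on its difference was not tested. The other paralogs were Tspoap1, with group means of 42.66 RPKM in WT and 40.05 in KI, Ppfia4 with 24.9 and 26.48, Ppfia1 with 5.679 and 5.343, Unc13b with 5.191 and 5.12, Unc13c with 1.463 and 1.579, and Rimbp3 with 1.17 and 1.073. None of these 6 had an unadjusted p under 0.05.

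Of 27 binding partners of the scaffold, among them calcium channel subunits, syntaxins, neurexins and receptor phosphatases, 0 passed the limma test and 1 had an unadjusted p under 0.05. This was Ptprf, a receptor phosphatase that binds liprin-α, with 6.695 and 6.687 RPKM in WT and 8.012 and 7.729 RPKM in KI (log2 difference 0.21, limma adjusted p = 0.488). The next smallest p belonged to Lin7a (log2 difference 0.18, limma adjusted p = 0.516) and Lin7c (log2 difference -0.22, limma adjusted p = 0.518), adaptor proteins that bind CASK. Ptprf lies on chr4, 18.3 Mb from Kdm1a, and the part of this position in its difference was not tested either. Over paralogs and partners together, 3 of 35 were higher and 0 lower at an unadjusted p under 0.05, the KI values lay below both WT values for 6 and above for 10, and the median log2 difference was 0.03. These counts are to be read against the shares over all tested genes given above (6.3% higher and 3.33% lower at that p, 18.1% below and 24% above). For 16 genes of vesicles and the release machinery the median was 0.05, with KI below for 3 and above for 7. For 10 postsynaptic scaffold genes it was -0.00, with 2 below and 2 above, against the same 18.1% and 24% of all genes. The median of the scaffold members (-0.07) was lower than each of these medians.

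The members have long transcripts, with 4264 (Rimbp2) to 19182 (Pclo) exonic bases, and the difference between KI and WT varied with length over all genes. Among genes with a mean of at least 5 RPKM, the median log2 difference was 0.043 for the 1600 genes under 1 kb and -0.031 for the 902 genes of 8 kb or more. Of these long genes, 36.8% had both KI values below both WT values, as did 3 of the 5 members of this length (Bsn, Pclo and Ppfia2). For the 1761 genes of 5 to 8 kb the median was -0.015 and the share 28.2%, against 1 of 4 members (Rims1). At an unadjusted p under 0.05, 4.77% of the genes of 8 kb or more and 3.8% of those of 5 to 8 kb were lower in KI. The shares over all tested genes (18.1% below both WT values, 3.33% lower at that p) carry no such RPKM minimum. Without it, both KI values lay below both WT values for 30.6% of genes of 8 kb or more and 23.2% of those of 5 to 8 kb. At that p, 3.32% and 2.75% of them were lower in KI. On this like basis the share below both WT values was higher among long genes, whereas the share at that p was not. The part of length in the differences of the members was not tested. Ppfia2 (-0.22) lay below the 5th percentile of the genes of its length (-0.18), whereas Bsn and Pclo lay above it.

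**Figure D4:**
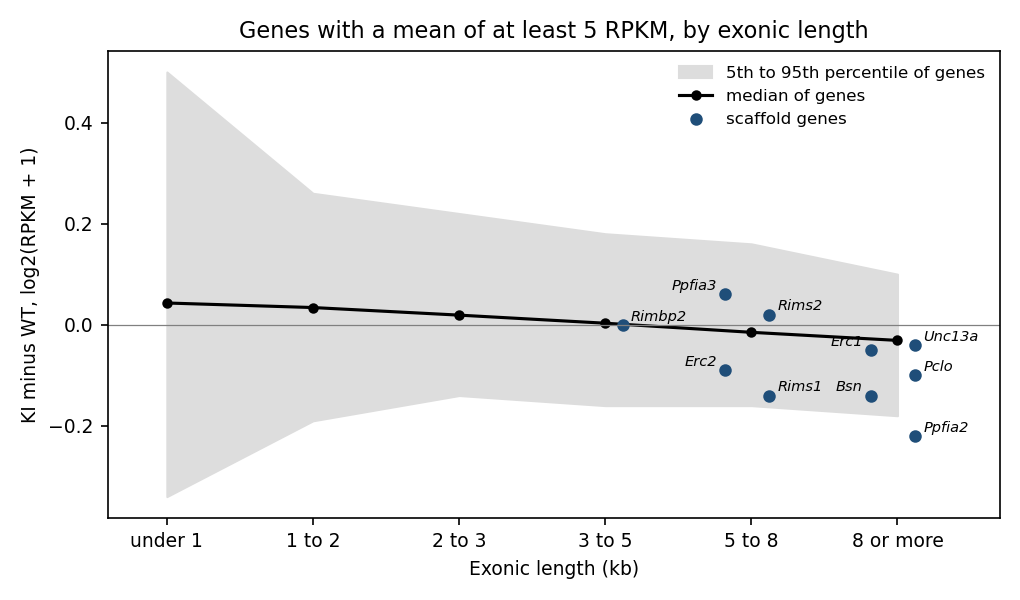
Difference between KI and WT on the log2(RPKM + 1) scale (vertical axis) by exonic length in kb (horizontal axis, 6 classes) for genes with a mean of at least 5 RPKM. The black line is the median and the grey area runs from the 5th to the 95th percentile of genes in each class; blue points are the 10 scaffold genes, spread sideways within their class for legibility. The median declines from 0.043 to -0.031, and Ppfia2 (-0.22) lies below the grey area.

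The share of hippocampal fields in the tissue may differ between samples, and markers of these fields were read beside the members. The dentate granule cell markers Prox1, C1ql2, Dsp and Tdo2 each had KI values below both WT values (4 of 4). Their summed level was 71.15 and 72.97 RPKM in WT and 47.32 and 56.77 RPKM in KI, a ratio of 0.722. No marker passed the limma test (adjusted p 0.336 to 0.587), and none was at 0. KI replicate 1 had the lower dentate sum of the KI samples, and also the lower Ppfia2, Erc2 and Unc13a values. The other members, among them Bsn, Pclo and Rims1, were lower in KI replicate 2 instead. Of the 4 CA1 markers, 3 overlapped between groups and 1 was higher in KI, with sums of 129.1 and 131.5 RPKM in WT and 115.4 and 146.1 RPKM in KI. Summed levels were higher in both KI samples for the 4 thalamus markers (10.39 to 11.42 RPKM in WT, 13.85 to 16.74 in KI), the 5 striatum markers (17.77 to 18.87 in WT, 21.86 to 21.91 in KI) and the 5 endothelium markers (55.33 to 62.91 in WT, 65.4 to 72.86 in KI). Single genes were higher in both KI samples for 3 of 4, 3 of 5 and 3 of 5 of these markers, while Tcf7l2 of the thalamus list and Rgs9 of the striatum list lay below both WT values. The 6 markers of all neurons summed to 681.2 and 700.3 RPKM in WT and 736.7 and 724.0 RPKM in KI, with 3 of the 6 above both WT values and the other 3 overlapping. All these marker counts are to be read against the 18.1% of all tested genes below and 24% above both WT values. The part of tissue composition in the differences of the members was not tested.

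**Figure D5:**
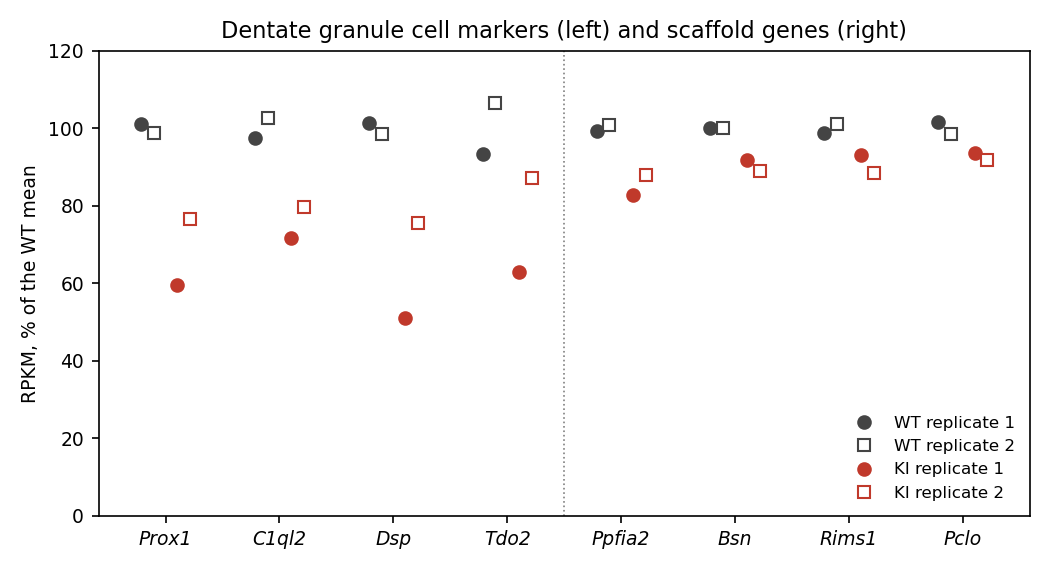
RPKM of each sample as a percentage of the WT mean (vertical axis, from 0) for the 4 dentate granule cell markers (left of the dotted line) and the 4 scaffold genes whose KI values lay below both WT values (right), with WT in grey and KI in red. The markers differ more than the scaffold genes, and KI replicate 1 (filled red circles) is the lowest sample for the markers and for Ppfia2, but not for Bsn, Rims1 or Pclo.

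LSD1 is known as part of the CoREST complex, which the repressor REST brings to RE1 elements, and as a partner of the clock factors that bind E-boxes, so the 250 bases before the RefSeq start (GRCm38.p6) were searched for both. A sequence was found for 9 of 10 members, all except Rims2. The E-box CACGTG, which reads the same on both strands, was in 0 of these 9, against 6.05% of 27025 genes. The left part of RE1, TTCAGCACC, searched on both strands, was in 1 of 9, Ppfia3, against 0.285% of all genes. The GC content of the 9 was 58.0% to 76.0%, above the median of 52.0% over all genes. The upstream sequences of the liprin-α genes are shown as the pair in which 1 gene, Ppfia3, holds the RE1 letters (in capitals). The groups overlapped for Ppfia3, and no relation between the letters and expression was tested. They lie at chr10:106470060-106470309 on the plus strand (Ppfia2) and chr7:45367020-45367269 on the minus strand (Ppfia3). A match of letters is a description and does not show binding.
Ppfia2: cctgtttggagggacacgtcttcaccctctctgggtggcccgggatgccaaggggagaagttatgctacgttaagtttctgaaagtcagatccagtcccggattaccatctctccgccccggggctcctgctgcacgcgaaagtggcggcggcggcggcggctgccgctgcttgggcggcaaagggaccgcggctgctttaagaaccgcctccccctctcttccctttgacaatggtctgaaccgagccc
Ppfia3: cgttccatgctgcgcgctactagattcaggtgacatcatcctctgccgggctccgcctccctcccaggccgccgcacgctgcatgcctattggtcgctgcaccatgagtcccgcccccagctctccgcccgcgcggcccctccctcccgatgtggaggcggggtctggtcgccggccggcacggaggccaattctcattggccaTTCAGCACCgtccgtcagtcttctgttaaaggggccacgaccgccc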

How the data were processed

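Hippocampal poly(A) RNA of 2 WT and 2 KI samples was sequenced in pairs. The authors aligned reads with GSNAP (2013-11-27) to mm10, used only pairs that mapped properly and to 1 place, and deposited the RPKM of each gene, 1 file per sample. Replicates were not pooled. The submitters' processing notes also name CASAVA. A gene absent from a file was given 0. The RPKM values of all 26328 genes came out as whole reads within 1e-06 reads; whether a read or a pair was counted is not given in the sources used here. These reads served for depth, exact Poisson intervals, which cover counting error only, and added alternatives. limma 3.58.1 (R 4.3.3) was run on log2(RPKM + 1) with a mean-variance trend, no block and Benjamini-Hochberg adjustment over the 18436 genes that reached 0.5 RPKM in 2 or more samples. Genes were called at an adjusted p under 0.1 and at least 1.2-fold. On this scale the change of low genes is understated. The code was tested on simulated data. Python 3.11.15 with pandas 2.3.3 was used otherwise, and positions are from GENCODE M21. The 10 members and all comparison lists were chosen with earlier results of these data known. All members and paralogs were named, and of the partners the 3 with the smallest p.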

Additional observations from a re-analysis of the deposited data

How the results depend on the processing

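The number of scaffold genes called was 0 under all 15 alternatives tried for it, among them another pseudocount, no filter, other scalings, the replicate block, each replicate left out and voom. Over all genes the count was 0 under most settings, but 20 without the mean-variance trend, 1 with a minimum of 10 reads in every sample, 50 with that minimum and the replicate block, 279 with voom on recovered reads and 444 with voom and the replicate block. The settings with 10 reads and voom were chosen after seeing the data, and the cause of the higher counts was not tested. Of the other active zone genes, 1 (Rims3) was called by voom, and 1 with voom and the block. Same-numbered samples did not deviate together over all genes (Pearson's r = -0.0249 across 18436 genes). With 2 samples per group this cannot show whether they share a batch. With the replicate block and no minimum of reads, 0 genes were called by limma. The number of members at an unadjusted p under 0.05 was then 1 in place of 3. The median difference of the members was -0.09 with median-ratio scaling, and -0.10 to -0.06 with each replicate left out. Differences of Ppfia2 stayed between -0.26 and -0.18, and those of Bsn between -0.16 and -0.12, over 14 alternatives each, with adjusted p from 0.0316 to 0.729 for Ppfia2 and from 0.151 to 0.749 for Bsn. Small differences changed sign in 2 genes: Erc1 was 0.01 without KI replicate 2 (-0.12 to 0.01 with each replicate left out), and Rimbp2, at -0.00 with all samples, was 0.02 without WT replicate 2 and 0.01 without KI replicate 2, within a range of -0.02 to 0.02 with each replicate left out. Where a replicate was left out, the lone sample was assumed to vary like the other group. The depth of these libraries limits the members little, and the number of samples limits every test.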
